A study of Mus musculus with 96 samples.

Results

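Duxbl1, Duxbl2 and Duxbl3 are 3 near-identical copies of a double-homeobox gene of the mouse, and they make up 3 of the 55401 gene rows of a table of single oocytes and embryos. The genes were chosen by symbol, and their levels over the 16 stage groups were known when they were chosen. Their levels by stage are therefore a description and carry no test. The tests below concern the spread between embryos of the same hour, and other genes. They are not wholly independent of the choice. Zscan4d and MERVL-int were part of it as references for timing, and the gene lists were chosen with earlier results known.

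The 96 libraries each held the RNA of 1 oocyte or embryo of strain C57BL/6J, and no group carried a mutation or a treatment. Donor females were superovulated with PMSG and hCG and mated to males of the same strain, and embryos were freed of cumulus cells and cultured in KSOM. There were 8 oocytes and 7 morulae. Embryos timed from fertilization numbered 5 in each of the groups 0, 2, 8, 10, 12, 14 and 20 h, 2 in the 4 h group and 3 in the 6 h group. The 16 h group held 8 embryos, the 18 h group 9, the 22 h group 10, the 24 h group 6 and the 36 h group 8. Per the labels, embryos of 0 h to 36 h formed 1 cohort, while oocytes and morulae were handled in batches of their own, so that batch and stage cannot be told apart for those 2 groups. From 16 h to 24 h, 24 embryos have titles that end in the letter b, whose meaning the labels do not give. The labels do not name the mother of an embryo, so p-values measure the spread between these embryos.

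Double-homeobox genes encode transcription factors with a pair of homeodomains, the DNA-binding fold of homeobox proteins. Dux, the best known mouse member, is transcribed around the first cleavage and activates the 2-cell program: the Zscan4 zinc-finger genes, endogenous retroviruses of the MERVL family and genes that use their promoters. In mouse embryonic stem cells Dux is known to induce Duxbl.

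In GENCODE M21 on GRCm38 the copies lie on chromosome 14 in the same orientation, on the plus strand. Duxbl1 (ENSMUSG00000048502.14) spans bases 25978577 to 25990088, Duxbl2 (ENSMUSG00000072675.12) bases 26118349 to 26129763, and Duxbl3 (ENSMUSG00000072672.10) bases 26257962 to 26269436. Their starts are 139772 and 139613 bases apart. Duxbl2 lies inside the span of Cphx3, another homeobox gene, with which it shares 0 exonic bases. Each main transcript has 5 exons and encodes 350 residues, and all 1053 coding bases, stop codon included, are the same in the 3 copies. Exon 2 of the main transcripts, which is wholly coding, is shown because its 155 bases are identical in all copies, so that a read from inside it cannot be placed in one of them. No base is set in capitals, since none differs.

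Exon 2 of Duxbl1 (chr14:25984146-25984300), of Duxbl2 (chr14:26123740-26123894) and of Duxbl3 (chr14:26263389-26263543), plus strand, GRCm38: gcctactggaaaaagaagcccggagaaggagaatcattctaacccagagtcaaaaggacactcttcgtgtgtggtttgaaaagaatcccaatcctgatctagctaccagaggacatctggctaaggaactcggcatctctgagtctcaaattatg

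Outside the coding part the main transcripts differ little. Those of Duxbl1 and Duxbl2 have 1 mismatch and an internal gap of 10 bases before the start codon, and those of Duxbl2 and Duxbl3 have 0 mismatches. Of all stretches of 100 bases in the annotated transcripts of a copy, 13.1% occurred in Duxbl1 alone, 6.5% in Duxbl3 alone and 0.0% in Duxbl2 alone, and none occurred in another gene. How reads that match several copies were counted is not given in the sources used here. The split between the 3 rows is therefore uncertain, and the sum of the rows is the firmer measure.

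Levels are given as CPM, counts scaled to the gene-row total of the library. Gene counts per library ran from 564538 to 6795311, with a median of 2099222, apart from 1 morula library of 10378. In that library, morula replicate 4, all Duxbl rows were at 0, where 3 counts would already be 289 CPM. The library of 10 h replicate 5 had a median correlation of 0.222 with the rest of its group, and its Duxbl rows were at 0 as well. Without these libraries the Duxbl sum averaged 36.6 ± 9.72 CPM in morulae (SD, n = 6) and 2.33 ± 1.65 CPM at 10 h (SD, n = 4), against 31.3 ± 16.4 CPM (SD, n = 7) and 1.86 ± 1.77 CPM (SD, n = 5) with them.

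The Duxbl sum was low after fertilization, was higher in every embryo of 16 h to 36 h, and had its highest group means at 24 h and 36 h. It averaged 7.88 ± 2.62 CPM in oocytes (SD, n = 8) and 3.42 ± 2.53 CPM over the embryos of 0 h to 14 h (SD, n = 35), in which no library exceeded 9.01 CPM. Without 10 h replicate 5 the 0 h to 14 h mean was 3.52 ± 2.50 CPM (SD, n = 34). At 16 h the mean was 23.0 ± 8.33 CPM (SD, n = 8), with a lowest embryo at 9.44 CPM, so all 8 lay above every earlier embryo. Embryos of 18 h averaged 35.1 ± 23.4 CPM (SD, n = 9), those of 20 h 26.3 ± 10.4 CPM (SD, n = 5) and those of 22 h 35.3 ± 30.1 CPM (SD, n = 10). Embryos of 24 h averaged 99.6 ± 63.2 CPM (SD, n = 6) and those of 36 h 107.8 ± 58.2 CPM (SD, n = 8). In the order of the 16 group means, from 36 h down to 10 h, the ranges of all 15 pairs of neighbours overlapped.

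**Figure D1:**
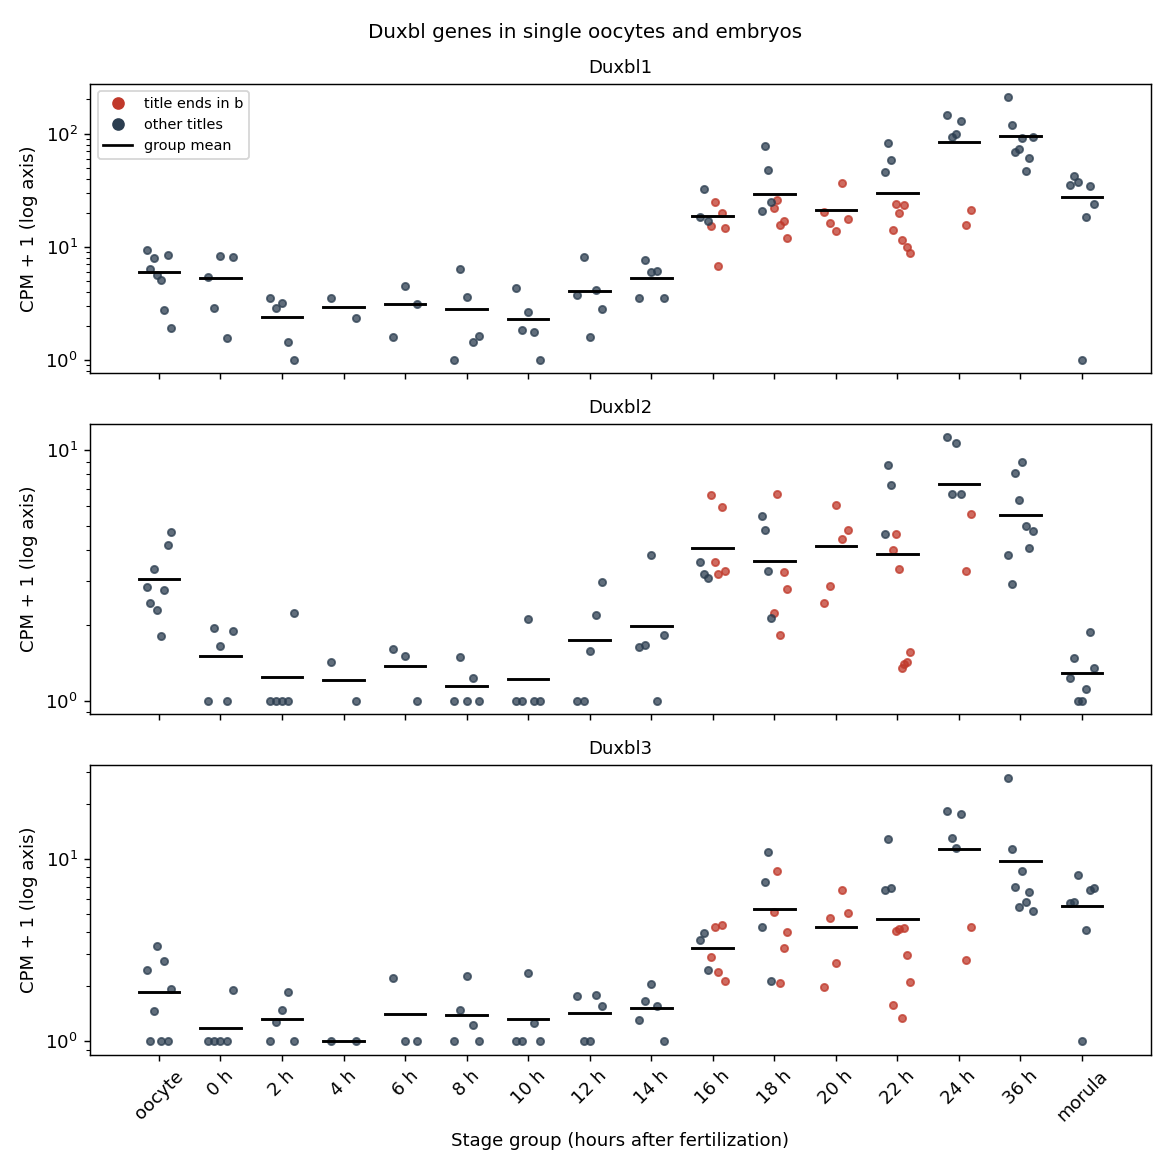
CPM + 1 of Duxbl1, Duxbl2 and Duxbl3 on a log axis in each of the 96 libraries, by stage group; red points are embryos whose titles end in b, dark points are all others, and black lines are group means. The means of all 3 rows are higher in the groups of 16 h to 36 h than in those of 0 h to 14 h, Duxbl2 is low again in morulae, and at 22 h and 24 h the red points of Duxbl1 lie below the dark ones.

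Duxbl1 carried most of the counts. It averaged 2.62 ± 2.18 CPM over 0 h to 14 h (SD, n = 35) and 17.7 ± 7.63 CPM in the 16 h group (SD, n = 8). Its mean was 83.03 ± 54.3 CPM in 24 h embryos (SD, n = 6), 94.6 ± 51.6 CPM in 36 h embryos (SD, n = 8) and 26.55 ± 14.25 CPM in morulae (SD, n = 7). At 36 h its lowest, median and highest embryos had 45.7, 81.8 and 210 CPM. Per kilobase of exon it stood at 19.8 ± 10.8 CPM at 36 h, against 0.923 ± 0.438 for Duxbl2 and 1.67 ± 1.45 for Duxbl3 (CPM per kilobase, SD, n = 8).

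Duxbl2 and Duxbl3 were low throughout, and Duxbl2 was near 0 in morulae. Duxbl2 averaged 6.35 ± 3.05 CPM in 24 h embryos (SD, n = 6), 4.49 ± 2.13 CPM in 36 h embryos (SD, n = 8) and 0.295 ± 0.314 CPM in morulae (SD, n = 7). For Duxbl3 the 24 h mean was 10.3 ± 6.55 CPM, the 36 h mean 8.69 ± 7.57 CPM and the morula mean 4.503 ± 2.36 CPM (SD, same n). Of the counts in these 2 rows, Duxbl2 held 71.2% in oocytes (95% Wilson interval 54.6% to 81.9%), 36.7% at 24 h (32.6% to 41.1%), 30.2% at 36 h (25.03% to 36.4%) and 5.44% in morulae (2.12% to 13.1%). Over single embryos with at least 5 counts in these rows, the median share of Duxbl2 was 42.6% at 24 h (n = 6) and 46.4% at 36 h (n = 8), so the order of these 2 stages turns round. The embryo with the lowest share at 36 h had 9.55%. Duxbl3 had the higher count in 6 of the 7 morulae and Duxbl2 in 0, whereas Duxbl2 was higher in 6 of 8 oocytes and Duxbl3 in 1. These intervals cover counting error only, and the part of read assignment in the split was not tested. Duxbl1 made up 67.7% of the pooled counts of the 3 rows in oocytes (59.1% to 75.3%), 83.8% at 24 h (82.4% to 85.1%), 87.6% at 36 h (86.1% to 88.99%) and 84.5% in morulae (81.1% to 87.6%).

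**Figure D2:**
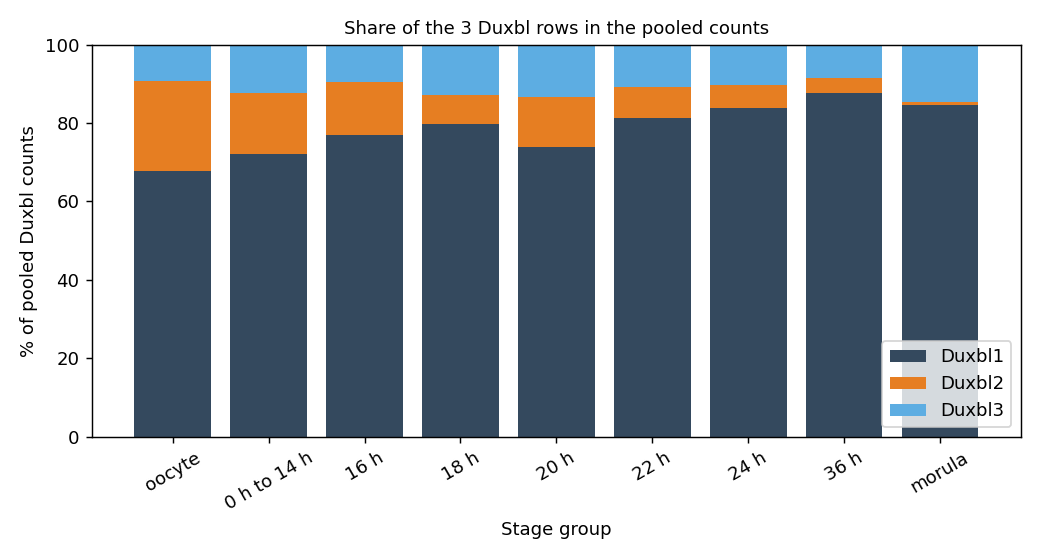
Share of Duxbl1, Duxbl2 and Duxbl3 in the counts pooled over the libraries of each stage group, in percent. Duxbl1 holds 67.7% in oocytes and 87.6% at 36 h, and Duxbl2 shrinks to 0.843% in morulae.

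The Duxbl sum was above its early level at 16 h, when Zscan4d and MERVL-int, the internal part of the MERVL retrovirus, were still low. Among the single rows at 16 h, Duxbl1 and Duxbl3 each had 7 of 8 embryos above the highest embryo of 0 h to 14 h, and Duxbl2 had 2. At 16 h the mean Duxbl sum stood at 21.4% of its 36 h mean, whereas Zscan4d stood at 1.39% and MERVL-int at 0.176% of theirs. Over the embryos of 0 h to 14 h these shares were already 3.17%, 0.655% and 0.104%. Against those early means, the 16 h means were higher by factors of 6.74, 2.13 and 1.69. Zscan4d averaged 4.06 ± 2.99 CPM at 16 h (SD, n = 8), where 2 of 8 embryos lay above the highest embryo of 0 h to 14 h, and at 36 h it averaged 292 CPM, with 160 to 575 CPM in single embryos (n = 8). MERVL-int averaged 18.6 ± 8.49 CPM at 16 h and 10570 ± 3966 CPM at 36 h, and 3 of 8 embryos at 16 h lay above the highest embryo of 0 h to 14 h. Zscan4d was above that mark of its own in 3 of 5 embryos at 20 h and in 6 of 10 at 22 h. The listed 2-cell program genes, summed, were also higher at 16 h, with a median of 619 CPM (412 to 873) against 314 CPM (291 to 400) at 14 h. In morulae the Duxbl sum was still at 29.1% of its 36 h mean, whereas Zscan4d was at 0.0704% and MERVL-int at 2.37%. Without morula replicate 4 these were 33.9% for the Duxbl sum, 0.0822% for Zscan4d and 1.15% for MERVL-int.

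**Figure D3:**
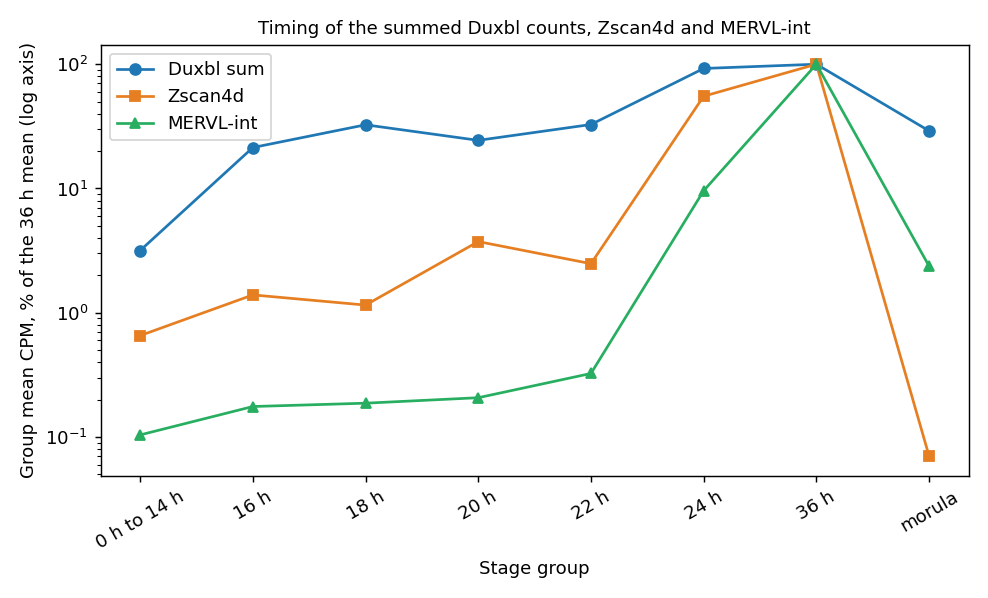
Group means of the Duxbl sum, Zscan4d and MERVL-int as a percent of the 36 h mean of each, on a log axis, from 0 h to 14 h pooled up to morulae. At 16 h the Duxbl sum is at 21.4%, Zscan4d at 1.39% and MERVL-int at 0.176%.

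Embryos of the same hour fell apart by title. At 24 h the Duxbl sum was 18.7 and 28.0 CPM in the 2 embryos with titles ending in b, against 171.6, 110.8, 117.7 and 151 CPM in the 4 others. At 22 h it ran from 9.53 to 29.4 CPM in 7 embryos with b, with a median of 16.6, and was 54.1, 100.4 and 69.7 CPM in the 3 others. The groups did not overlap at either hour. At 18 h they did, with 15.7 to 37.9 CPM in 5 embryos with b and 26.2 to 86.8 CPM in 4 others, and at 16 h they overlapped widely, with 9.44 to 29.7 CPM in 5 embryos with b and 19.5 to 36.8 CPM in 3 others.

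In an exact two-sided permutation test stratified by hour, embryos with b were lower, with a weighted mean difference of -1.38 on the log2(CPM + 1) scale (p = 1.58e-05 over 12700800 relabelings). Hour by hour, the log2 difference, embryos with b minus the others, was -0.34 for 16 h embryos, -0.96 for those of 18 h, -2.04 for those of 22 h and -2.51 for those of 24 h. The exact permutation p adjusted over the 4 hours was 0.0333 for 22 h, 0.482 for 16 h and 0.0952 for both 18 h and 24 h. For 24 h, 0.0667 is the smallest unadjusted p that 2 against 4 embryos allow. Whether the difference varied between hours was not tested. Among embryos with b the mean sum kept within 18.4 CPM (22 h) and 26.3 CPM (20 h), with 21.1, 23.3 and 23.4 CPM in the 16, 18 and 24 h groups. Among the others it was 26.2 CPM in the 16 h group, 49.8 in the 18 h group, 74.7 in the 22 h group and 137.8 in the 24 h group. All 5 embryos of 20 h had titles with b.

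Each copy was lower with b at 24 h, without overlap. Duxbl1 had 14.6 and 20.2 CPM in the embryos with b, against 93.1 to 144 CPM in the others. Duxbl3 had 1.80 and 3.26 CPM with b, against 10.5 to 17.3 CPM in the others, and Duxbl2 had 2.30 and 4.56 CPM with b, against 5.65 to 10.2 CPM in the others. At 16 h Duxbl1 averaged 15.4 ± 6.76 CPM with b (SD, n = 5) and 21.6 ± 8.74 CPM in the others (SD, n = 3). Duxbl2 was higher with b at 16 h, at 3.52 ± 1.62 CPM (SD, n = 5) against 2.29 ± 0.252 CPM in the others (SD, n = 3). Duxbl3 averaged 2.21 ± 1.02 CPM with b and 2.32 ± 0.759 CPM in the others at that hour. At 16 h and 18 h the ranges of each copy overlapped between titles.

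Other measures differed by title as well, though not all of them at every hour. Of 7 blood and oviduct markers, 5 had a higher median with b in the 16 h group, 2 in the 18 h group, 6 in the 22 h group and 5 in the 24 h group. Their summed level did not overlap between titles at any of these hours, also not at 16 h and 18 h, where the Duxbl sums did. It was 25.8 to 2052 CPM at 16 h with b and 1.29 to 4.87 CPM in the others, and 15.2 to 30.1 CPM at 18 h with b and 0 to 8.54 CPM in the others. Their summed level was 135.2 to 5490 CPM at 22 h in embryos with b and 4.31 to 6.90 CPM in the others, and 81.8 to 360 CPM at 24 h in embryos with b and 4.35 to 20.6 CPM in the others. Ovgp1, the oviduct glycoprotein, named after its values were seen, had 115.7 to 455 CPM at 22 h with b, against 0.314 to 0.629 CPM in the others. At 18 h with b its median was 26.13 CPM, where the median of the summed level was 27.41 CPM. The blood markers Hbb-bs and Hba-a1 were not higher with b at 18 h, with medians of 0, against 0.5427 and 1.138 CPM in the others. At 36 h, where no title ends in b, the 7 markers summed to 26.98 to 248.9 CPM. Repeat rows took 5.44% to 6.29% of all counts at 24 h with b, against 14.8% to 18.0% in the others. At 22 h these shares overlapped, at 5.92% to 15.3% with b and 11.7% to 15.7% in the others. Oocyte markers summed to 8497 to 9471 CPM at 24 h with b, against 6106 to 7294 CPM in the others. At 22 h they overlapped, at 6658 to 10313 CPM with b and 7352 to 8043 CPM in the others. Gene counts per library overlapped at 24 h, at 1534870 and 4998218 with b, against 4070798 to 6795311. The part of these in the Duxbl difference was not tested.

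**Figure D4:**
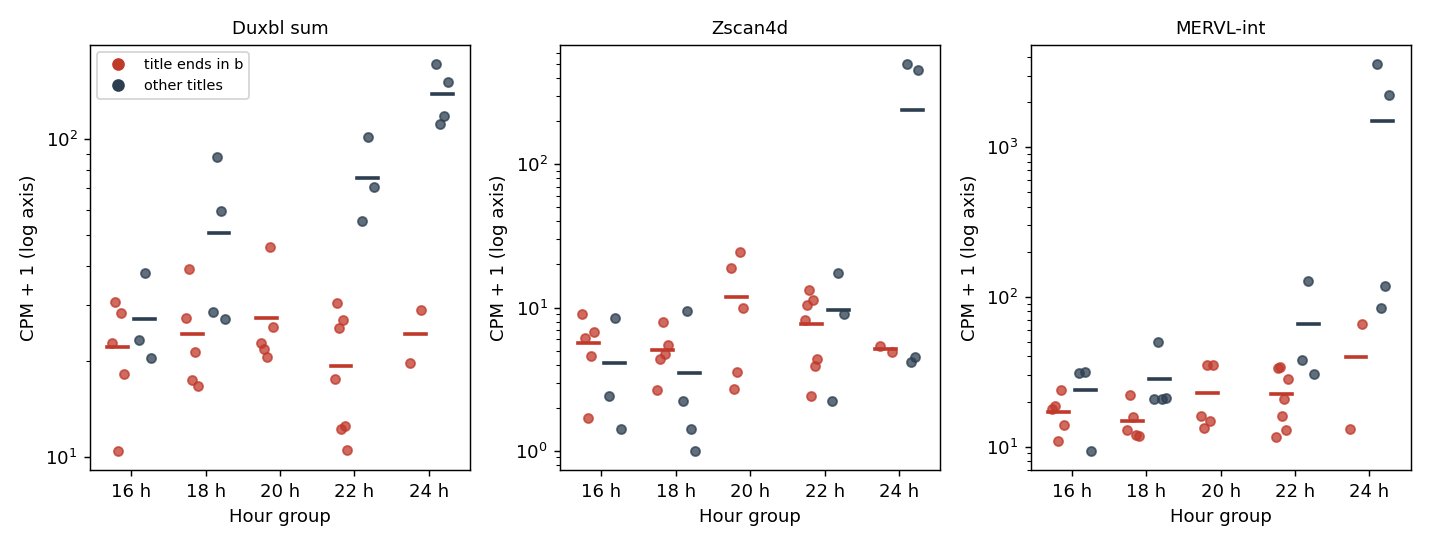
CPM + 1 on a log axis of the Duxbl sum, Zscan4d and MERVL-int in single embryos of 16 h to 24 h, with titles ending in b in red left of the others in dark; short lines are means. At 24 h the Duxbl sum is 18.7 and 28.0 CPM with b and 110.8 to 171.6 CPM in the others, whereas Zscan4d is high in 2 of those 4.

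High Duxbl levels occurred with and without high Zscan4d among embryos of the same hour. At 24 h, replicates 2 and 3 had Duxbl sums of 110.8 and 117.7 CPM with 3.19 and 3.50 CPM of Zscan4d, while replicates 1 and 4 had 171.6 and 151 CPM with 501 and 452 CPM of Zscan4d. MERVL-int stood at 82.8 and 116.8 CPM in replicates 2 and 3, and at 3592 and 2214 CPM in replicates 1 and 4. Duxf3, the row of the Dux gene, was looked up after these values were seen. It had up to 0.326 CPM in the 24 h embryos with b, against 8.70 to 22.8 CPM in the 4 others, replicates 2 and 3 included. Duxf3 also differed by title at 22 h, with 2.721 to 20.68 CPM in the 3 embryos without b and up to 1.77 CPM in the 7 with b. At 18 h, replicate 2 had both the highest Duxbl sum, 86.82 CPM, and the highest Duxf3, 7.597 CPM. Replicate 3 of that hour had a sum of 58.5 CPM with Duxf3 at 0. At 36 h Duxf3 did not follow the Duxbl sum: replicates 1, 4, 5, 7 and 8 had sums of 68.8 to 239.8 CPM with 0 to 0.845 CPM of Duxf3.

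In all, 10 relations were computed, of the Duxbl sum with each of Zscan4d and MERVL-int in the groups of 16, 18, 22, 24 and 36 h, on the log2(CPM + 1) scale. With MERVL-int, Pearson's r was 0.72 at 16 h (exact permutation p = 0.0368, adjusted over the 10 relations 0.123, n = 8) and 0.85 at 18 h (exact p = 0.00285, adjusted 0.0274, n = 9). It was 0.77 at 22 h (permutation p = 0.00549, adjusted 0.0274, n = 10), 0.82 at 24 h (exact p = 0.0681, adjusted 0.170, n = 6) and -0.34 at 36 h (exact p = 0.396, adjusted 0.441, n = 8). Spearman's rho was 0.83, 0.77, 0.70, 1.0 and -0.38 in the same order of hours, with permutation p (exact under 10 embryos) of 0.0154, 0.0214, 0.0298, 0.00278 and 0.360, and adjusted p of 0.0713, 0.0713, 0.0746, 0.0278 and 0.400. At 22 h and 24 h the embryos form separate clusters by title, so the pooled r there mixes both kinds of title.

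With both measures centred within title, r with MERVL-int was 0.69, 0.75, 0.53 and 0.94 in the 16, 18, 22 and 24 h groups, with adjusted exact permutation p of 0.0711, 0.0711, 0.146 and 0.0711 over 8 relations. Without the 2 embryos farthest from the median of MERVL-int, r was 0.59 at 18 h (exact p = 0.162, n = 7) and 0.64 at 22 h (exact p = 0.0869, n = 8), so neither passed 0.05 without those embryos, which leaves fewer embryos and a narrower range. It was 0.75 in the 16 h group (exact p = 0.0819, n = 6), 0.83 in the 24 h group (exact p = 0.0417, n = 4) and -0.21 in the 36 h group (exact p = 0.731, n = 6). These p-values are not adjusted, and 0.0417 is the smallest that 4 embryos allow. The embryos left at 24 h split by title, with sums of 18.7 and 28.0 CPM with b and 110.8 and 117.7 CPM in the others, so that r mixes both kinds of title.

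With Zscan4d, r in the same 5 groups was 0.60, -0.04, 0.46, 0.61 and -0.34, and no adjusted permutation p (exact under 10 embryos) passed 0.05, at 0.215, 0.918, 0.262, 0.215 and 0.441. Spearman's rho was 0.40, -0.17, 0.47, 0.49 and -0.52, with adjusted permutation p of 0.400, 0.678, 0.328, 0.400 and 0.328. Without the 2 embryos farthest from the median of Zscan4d, r was 0.18, 0.24, 0.79, -0.94 and -0.26, over 6, 7, 8, 4 and 6 embryos. Centred within title, the relation at 22 h had r = 0.85 (exact permutation p = 0.00341, adjusted 0.0272, n = 7 with b and 3 others), and among the 7 embryos with b alone r was 0.89 (exact p = 0.0177). This centring was added after the values were seen.

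**Figure D5:**
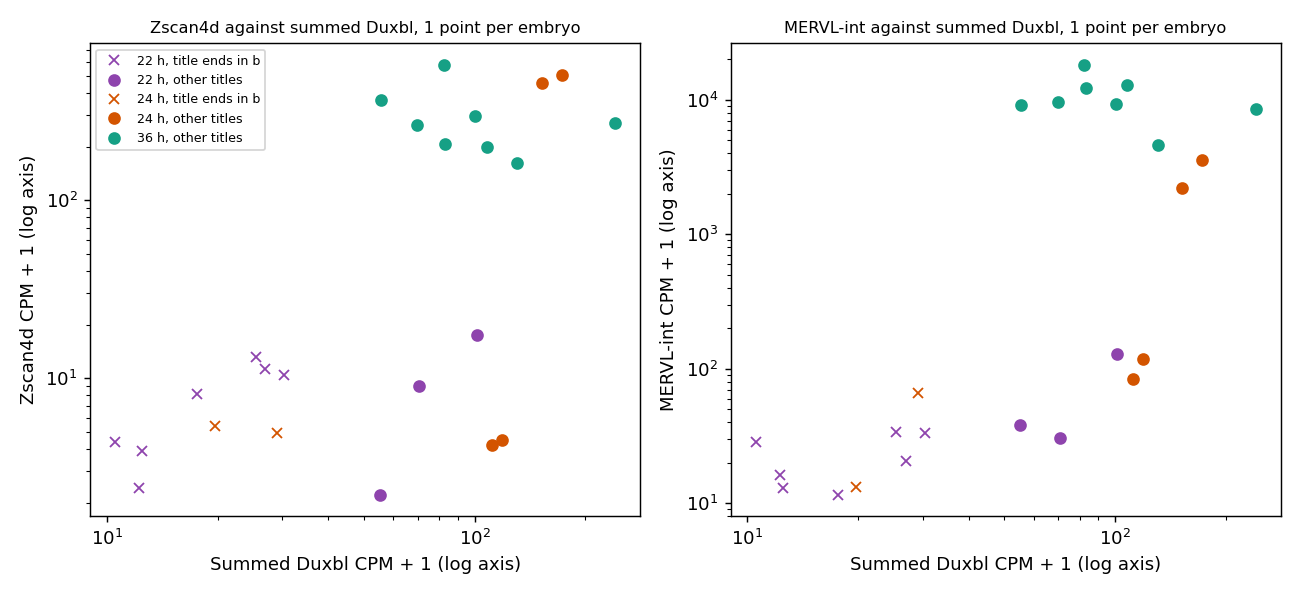
Zscan4d (left) and MERVL-int (right) against the Duxbl sum in single embryos of 22 h, 24 h and 36 h, all as CPM + 1 on log axes; crosses are embryos whose titles end in b and circles are the others. Of the 4 circles of 24 h with a sum of 110.8 to 171.6 CPM, 2 have 452 and 501 CPM of Zscan4d and 2 have 3.19 and 3.50 CPM.

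The rest of the 2-cell program was compared at 3 steps with edgeR's quasi-likelihood test, adjusted over all genes tested by the Benjamini-Hochberg method. At 24 h against 12 h, 4 of 7 list genes tested rose and 0 fell, with a median log2 change of 2.87, against 0.05 over all 11083 genes tested, of which 13.4% were called higher and 8.23% lower. The list holds 37 genes with a row, and the others did not pass the filter on low counts. Zscan4d, Zscan4c and Ddit4l had 18.5, 14.3 and 9 counts in all at 12 h, so they passed that filter through 24 h. For them a fall could hardly have been called. Zscan4d averaged 161 ± 244.5 CPM at 24 h (SD, n = 6) and 1.58 ± 1.10 CPM at 12 h (SD, n = 5), a log2 change of 6.35 ± 1.65 (SE, edgeR adjusted p = 0.0146). Zscan4c of the same family rose by 6.28 ± 1.76 (log2, SE, edgeR adjusted p = 0.0206). Arg2, an arginase, averaged 203 ± 70.05 CPM at 24 h and 26.3 ± 39.2 CPM at 12 h (edgeR adjusted p = 0.00701). Ddit4l, related to a stress-response gene, averaged 22.0 ± 29.6 CPM at 24 h and 1.49 ± 1.94 CPM at 12 h (edgeR adjusted p = 0.0279). The count was 1 without 24 h replicate 1, 2 without 24 h replicate 3 or 4, 8 without 12 h replicate 2, 7 without 12 h replicate 5, and 12 without titles ending in b. Over the fits that leave out 1 embryo, Arg2 passed in all 11, Zscan4d in 3 of the 7 that tested it, Zscan4c in 5 of 11 and Ddit4l in 5 of 8.

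In the same comparison all 3 Duxbl rows passed the filter on low counts. Duxbl1 was higher at 24 h than at 12 h by 4.68 ± 0.68 (log2, SE), Duxbl3 by 4.16 ± 0.78 and Duxbl2 by 2.62 ± 0.70. Without titles ending in b these were 5.17 ± 0.41, 4.58 ± 0.61 and 2.87 ± 0.71. Of the homeobox relatives, 2 of 7 tested rose: Obox3, an oocyte-specific homeobox gene, averaged 21.5 ± 25.7 CPM at 24 h and 2.73 ± 0.943 CPM at 12 h (edgeR adjusted p = 0.018), and Nobox, known for its role in oocytes, averaged 193 ± 39.6 CPM and 60.98 ± 44.2 CPM at these hours (edgeR adjusted p = 0.00708).

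At 36 h against 24 h, 9 of 35 list genes tested rose and 0 fell, with a median log2 change of 1.61, against 0.05 over all 12636 genes tested, of which 29.1% were called higher and 23.2% lower. The share of the list called higher was near that of all genes. This count is a description too, since the list was chosen with earlier results known. Tdpoz1 averaged 128.4 ± 59.9 CPM at 36 h (SD, n = 8) and 7.03 ± 11.2 CPM at 24 h (SD, n = 6), AF067063 308 ± 92.2 CPM and 25.8 ± 44.8 CPM, and Usp17lb, a deubiquitinase gene, 324 ± 91.8 CPM and 26.8 ± 40.4 CPM. Tdpoz2 averaged 11.9 ± 5.64 CPM at 36 h and 0.970 ± 1.91 CPM at 24 h. The edgeR adjusted p was 0.00292 for Tdpoz1, 0.0113 for AF067063, 0.00641 for Usp17lb and 0.00742 for Tdpoz2. The homeobox genes Obox8 and Crxos rose to 102.3 ± 102.4 and 144 ± 60.3 CPM at 36 h, against 3.23 ± 6.39 and 5.12 ± 7.30 CPM at 24 h (edgeR adjusted p = 0.00179 and 8.29e-05), among 6 of 13 homeobox relatives that rose and 5 that fell.

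Over all embryos, the log2 differences of the Duxbl rows at 36 h against 24 h were -0.04 ± 0.43 for Duxbl1, -0.46 ± 0.52 for Duxbl3 and -0.70 ± 0.44 for Duxbl2 (SE). At 24 h 2 embryos have titles ending in b and at 36 h no embryo does, so these differences set unlike mixes of titles against each other. Without titles ending in b they were -0.54 ± 0.30, -0.94 ± 0.48 and -1.0 ± 0.49, and with library size alone as the scale that of Duxbl1 was 0.21 ± 0.46.

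In morulae against 36 h embryos, 32 of 34 list genes tested fell and 0 rose, with a median log2 change of -8.64, against -0.55 over all 11216 genes tested, of which 43.5% were called lower and 28.2% higher. Pooled over the morulae, AF067061 had 1 count, Zscan4d 2, Pramef6 0.5 and Zscan4a 3, against 3442, 4732, 1218 and 5665 counts at 36 h (edgeR adjusted p = 2.69e-11, 1.52e-11, 4.46e-08 and 1.32e-10). With so few counts in morulae, these genes passed the filter on low counts through 36 h, so only a fall was open to them. The count over the list is a description, since the list was chosen with earlier results known. Of the homeobox relatives 7 of 12 tested fell and 3 rose. The morula means of Obox3 and Obox5 were set by replicate 4, the library of 10378 counts. Without it Obox3 averaged 0.187 ± 0.355 CPM in morulae (SD, n = 6, 1.5 counts in all) and 225 ± 147 CPM at 36 h (SD, n = 8). Obox5 averaged 21.6 ± 13.3 CPM in morulae without it (SD, n = 6) and 4906 ± 2245 CPM at 36 h. With all 7 morulae the means were 13.9 and 514 CPM (edgeR adjusted p = 2.4e-10 for Obox3 and 7.24e-05 for Obox5).

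Duxbl1 was lower in morulae by a log2 change of -1.42 ± 0.33 and Duxbl3 by -0.52 ± 0.49 (SE), and Duxbl2 did not pass the filter. Duxbl1 had 33.9, 41.1, 36.6, 0, 17.5, 33.6 and 23.0 CPM in the 7 morulae, the 0 being the library of 10378 counts, and 45.7 to 210 CPM at 36 h. The ranges did not overlap.

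The 10 genes whose group means most resembled those of the Duxbl sum, by Pearson's r of mean log2(CPM + 1) over the 16 groups among 13226 genes, were Dym, Phb, Arhgdia, 4930453N24Rik, Oser1, Lmbr1l, Tuba4a, 1110008L16Rik, Uck2 and Mael, with r from 0.9757 down to 0.9484. The median r of all these genes was 0.18. In the 12, 16, 24 and 36 h groups and in morulae, Dym averaged 21.6, 53.3, 140.3, 101.1 and 40.0 CPM. Mael, a gene of the piRNA pathway, averaged 12.0, 39.4, 75.6, 148 and 33.4 CPM in these groups. None of the 2-cell program genes was among the 10: Arg2 came nearest, with r = 0.8652 at rank 185, and Zscan4d had r = 0.7074 at rank 1050. Only 4 of the 10 stayed on the list without 10 h replicate 5 and morula replicate 4.

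Markers of other cells were checked against the labels. Myoblast markers, included because Duxbl was described in muscle precursors, had a median sum of 0 CPM at 36 h and in morulae. Oocyte markers had a median sum of 16172 CPM in oocytes, 3756 CPM at 36 h and 152 CPM in morulae. Cumulus markers had medians of 563 CPM in oocytes and 48.6 CPM at 36 h, with 1 embryo of 36 h at 1597 CPM. Higher sums were found in 8 h replicate 2, at 2266 CPM, and in 10 h replicate 5, at 13329 CPM. In that 10 h library oocyte markers summed to 37.3 CPM, against a group median of 16767 CPM, so it goes against its label.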

How the data were processed

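RNA of 96 single oocytes and embryos was measured with SMART-Seq v4 and Nextera XT libraries, per the labels' protocols, which do not mark strand. Per the submitters' processing notes, the authors used Trimmomatic 0.39, STAR and featureCounts on mm10; annotation release and options for shared reads are not given in the sources used here. The deposited table holds expected counts, not normalized, for 55401 gene rows and 873 repeat rows; 28.4% of non-zero gene values are not whole. Tests had been planned for whole counts, so the expected counts were rounded for edgeR and DESeq2. CPM used unrounded counts over the gene-row total, for repeat rows too. Symbols come from GENCODE M21, matching 55141 rows.

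Groups followed the labels. The members and lists were chosen with earlier results of these data known. Stage comparisons used edgeR 4.0.16 (filterByExpr, TMM, robust quasi-likelihood fit, 2 groups at a time, adjusted p under 0.05), checked on simulated data. Title and within-hour tests were permutation tests. Those of title, and those centred within title, were exact at every hour. The other within-hour tests were exact under 10 embryos and otherwise used 100000 resamples. Genes named were the members, Zscan4d, MERVL-int, per comparison the 4 list genes and 2 homeobox relatives with the largest called change, and the 10 genes most like the Duxbl sum; Duxf3 and Ovgp1 were added after their values were seen. Alternatives were DESeq2 1.42.0, library size alone, no filter, 1 fit of all libraries, a block by title number, other pseudocounts, and leaving out libraries or titles ending in b. No reads or protein sequences were used here.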

Additional observations from a re-analysis of the deposited data

Results flagged for a closer look

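The sets examined were 56, each holding the values of a Duxbl row or the sum in a group of 4 to 10 libraries. In each, the highest and lowest libraries were compared with their neighbours. By Dixon's criterion, which chance meets in about 1 of 20 independent groups, 10 stood apart. The sets are not independent, since the sum contains the rows, and several hold few counts. The 10 flags were therefore not set against that rate. At 36 h, replicate 1 had 210 CPM of Duxbl1 against 45.7 to 117.4 CPM in the other embryos, 26.8 CPM of Duxbl3 against 4.16 to 10.3 CPM, and a Duxbl sum of 240 CPM against 54.5 to 130 CPM; its Duxbl2 level, 2.82 CPM, did not stand apart. At 20 h, replicate 4 had 35.5 CPM of Duxbl1 against 12.9 to 19.3 CPM, and a sum of 44.6 CPM against 19.7 to 24.5 CPM, from 39 counts. At 22 h, replicate 2 had 11.8 CPM of Duxbl3 against 0.351 to 5.96 CPM. The remaining flags rest on a few counts: 10 h replicate 3 with 1.12 CPM of Duxbl2 and 1.38 CPM of Duxbl3, 2 h replicate 5 with 1.23 CPM of Duxbl2, and 0 h replicate 5 with 0.901 CPM of Duxbl3. The 36 h mean of the Duxbl sum was 88.9 CPM without replicate 1.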

How the results depend on the processing

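The title effect kept its direction and its call under each alternative run. The group means of the Duxbl sum moved by less than 1 SD with TMM-scaled CPM, with repeat rows added to the total, and with rounded counts. The 36 h mean, for example, was 88.6 CPM with TMM-scaled CPM, against 107.8 CPM. Leaving out 1 library cannot move a mean by 1 SD of its group, so those runs could not fail this mark. The 2-cell list count at 24 h against 12 h, 4 in the report, was 27 with DESeq2, 32 in 1 fit of all libraries, 2 with no filter on low counts and 12 without titles ending in b, and 1 to 8 when 1 embryo was left out. At 36 h against 24 h the count, 9 in the report, was 14 with DESeq2, 18 in 1 fit of all libraries and 8 to 15 when 1 embryo was left out. In morulae it stayed at 32 when any 1 library was left out. Fewer or more genes pass the filters in these fits; the cause was not tested further. With title number as a replicate block the counts were 12, 6 and 32, and in the same libraries with no block 13, 3 and 32. Same-numbered embryos did not deviate together in every pair, with correlations from -0.152 to 0.0925, so the numbers were not taken to pair the samples.

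The relation with MERVL-int lost its call with TMM-scaled CPM, at r = 0.78 at 18 h and 0.74 at 22 h, and when centred within title, at 0.75 and 0.53. That with Zscan4d at 18 h changed sign with a pseudocount of 10, at 0.09, and when centred within title, at 0.40, and at 22 h it gained a call when centred, at 0.85. Leaving out 1 embryo gave r with MERVL-int of 0.68 to 0.92 at 18 h, 0.61 to 0.86 at 22 h and 0.68 to 0.89 at 24 h, and r with Zscan4d of -0.62 to 0.19 at 18 h and 0.25 to 0.78 at 22 h. The call with MERVL-int was lost without 18 h replicate 2 or 9, or without 22 h replicate 1, 2, 7 or 9, and one was gained with MERVL-int without 24 h replicate 6 and with Zscan4d without 22 h replicate 1. Of the 10 genes most like the Duxbl sum, 3 were shared when Spearman's rho was used, 2 over single libraries of 0 h to 36 h, and 4 without the 2 libraries that stand apart. A count of 0 allows up to 3 counts, which limits Duxbl2 and Duxbl3 before 16 h.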
